A study of Homo sapiens with 18 samples.

Results

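RG7112 at 2 µM was compared with its solvent DMSO in OCI-AML3 cells, a line established from human acute myeloid leukaemia and labelled wildtype, after 24 h of treatment. The comparison used the 6 arrays titled RG7112 and the 6 titled DMSO, 12 of the 18 arrays of the series, and all 21448 probes of the value table. The other 6 arrays, from cells given a second MDM2 inhibitor, entered no test below except a fit with all 18 arrays. All cells grew in the same serum-containing medium, and the only difference between both groups in the labels is the agent. A line in culture lacks the marrow and immune cells around a leukaemia, and RG7112 was measured at 1 dose and 1 time.

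MDM2 is the ubiquitin ligase that binds p53 and sends it to the proteasome. RG7112 is a small molecule that occupies the p53 pocket of MDM2, so that p53 protein is spared and its target genes are transcribed. Cell cycle arrest, apoptosis and metabolic adjustment are the best known parts of that response. In arrested cells the genes of DNA replication and mitosis are silenced through the DREAM and RB repressor complexes. The p53 and division genes were set apart here as 5 core lists (p53 targets, G1/S and replication, G2/M and mitosis, replication-dependent histones, DNA repair and checkpoint), and the account below turns to the genes outside them.

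The values are log2 signals, and a change is the RG7112 mean minus the DMSO mean on that scale, with its standard error (SE) from the model fit. Each group had n = 6 arrays. A difference of 1 is 2-fold. "Rose" and "fell" are used only where the p-value from limma lay below 0.05 after Benjamini-Hochberg adjustment across the 21448 probes. Arrays 1 to 3 of each group lay apart from arrays 4 to 6, so this replicate set was a block in the model, and the change within each set is given beside many values as 1 to 3 first and 4 to 6 second. The replicates are labelled biological. Whether they came from separate cultures, and what distinguishes the sets, is not in the labels, so a p-value here speaks of the spread among these arrays and no more.

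RG7112 replicate 3 stood apart from the other arrays. The interquartile range of its signals was 3.45, against 3.70 to 3.91 on the other 11 arrays, and it correlated with the other RG7112 arrays at a mean r of 0.972, where those arrays reached 0.986 to 0.988. It was the lowest RG7112 array for 25 of the 30 largest falls described below, and the highest for 7 and the lowest for 1 of the 30 largest rises. Over all probes it was the lowest of the group for 30.8% and the highest for 30.8%. Values without it are therefore given for the counts over all probes, many of the leading genes and the leading lists. Of 175 named genes that passed, 174 passed without it, the exception being RAB27B (-0.75, adjusted p = 0.0501), and the difference with it was 0.842 to 1.48 times the difference without it. The genes that check the labels were higher under RG7112. MDM2 is transcribed by p53 and rose 5.95-fold (2.57 ± 0.10, adjusted p = 7.35e-10), and CDKN1A, the gene of the arrest protein p21, rose 15.6-fold (3.97 ± 0.14, adjusted p = 2.47e-10). MDM4, the partner of MDM2, differed by 0.31 ± 0.12 and did not pass (adjusted p = 0.100), although it passed without DMSO replicate 5 (adjusted p = 0.0377). Of the 9 measured myeloid leukaemia markers 8 lay above the median signal and 0 in the lowest 25% of signals, with an array mean of 9.68 to 9.80 under DMSO and 9.34 to 9.80 under RG7112. The means of 20 lymphocyte markers were 5.59 to 5.75 and 5.59 to 5.76, and those of 18 fibroblast and epithelial markers 5.39 to 5.50 and 5.38 to 5.67. In bulk RNA a lower signal from fewer cells of one kind cannot be told apart from less RNA per cell.

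The largest shifts under RG7112 were upward, although more probes fell than rose. Of 21448 probes 3574 passed, which is 16.7%. Among them 1607 rose (7.49% of all probes) and 1967 fell (9.17%). At a difference of at least 1 there were 261 rises (1.22%) and 287 falls (1.34%), but at 2 or more there were 50 rises and a single fall, and at 3 or more 9 rises and 0 falls. Rises made up 45.0% of the calls, and 34.8% when each array's median was subtracted. Without RG7112 replicate 3 there were 1965 rises and 2133 falls, and 3405 of the 3574 calls were made again in the same direction. The arrays of both groups did not overlap for 859 of the rises (4.01% of all probes) and 1131 of the falls (5.27%). The median difference over all probes was 0.03.

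**Figure D1:**
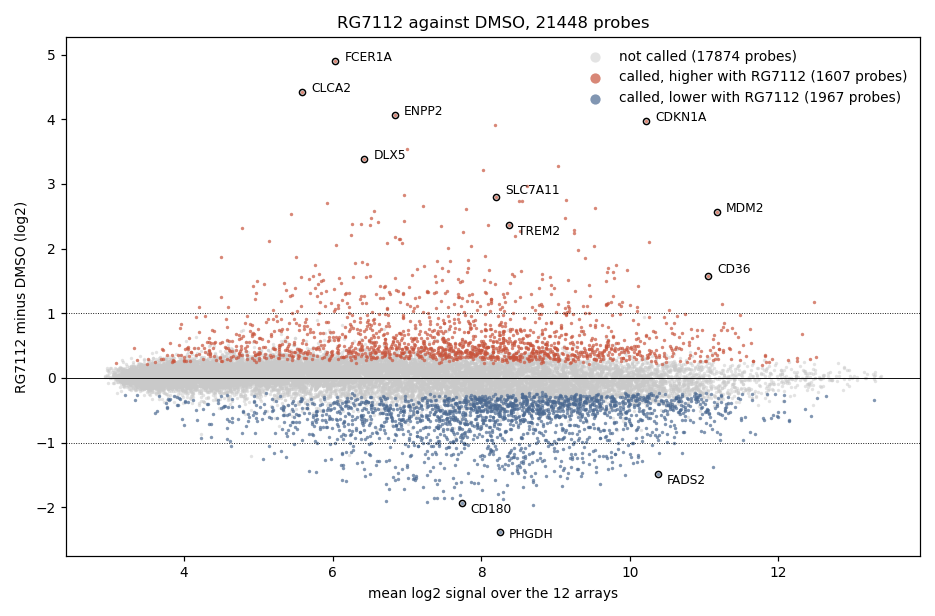
Difference between RG7112 and DMSO on the log2 scale (vertical axis) against the mean log2 signal over the 12 arrays (horizontal axis) for 21448 probes, with the 1607 probes that rose in red, the 1967 that fell in blue and the rest in grey. Dotted lines mark a difference of 1 in each direction. The upper edge of the cloud reaches 4.90 at FCER1A and the lower edge -2.39 at PHGDH.

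The largest falls belonged mostly to the core lists and the largest rises mostly did not. These counts depend on the members chosen for the lists, and a gene absent from the p53 list may still be a p53 target. Among the 30 named genes with the largest falls, 24 were on a core list, and among the 30 with the largest rises 13 were, all of them as p53 targets. Of 171 measured p53 targets 125 rose and 2 fell, with a median difference of 0.87. Of 77 measured G1/S and replication genes 72 fell and 1 rose, and of 140 G2/M and mitosis genes 136 fell and 0 rose. The medians of the G1/S and the G2/M list were -1.19 and -1.17. Of the histone genes 37 of 48 fell, and of the repair and checkpoint genes 42 of 48. Without RG7112 replicate 3, 128 p53 targets rose and the falls of the other 4 lists numbered 72, 136, 40 and 40.

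With the core lists set aside, 634 named genes rose and 750 fell with arrays that did not overlap between the groups, and the 30 largest of each are described next. The rises ran from 4.90 down to 1.68, and the next gene below stood at 1.67. The falls ran from -2.39 to -1.25, and the next gene stood at -1.24. Because large differences chose these genes, their sizes are a description. Without RG7112 replicate 3 the same rule gave 27 of the 30 rises and 25 of the 30 falls. GASK1B, TMEM63B and CR1L then took the places of 3 rises, and TCF19, TUBA8, EMP2, CDCA7L and AUNIP those of 5 falls. No difference among the 60 genes moved by more than 1.5 times when that array was left out.

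**Figure D2:**
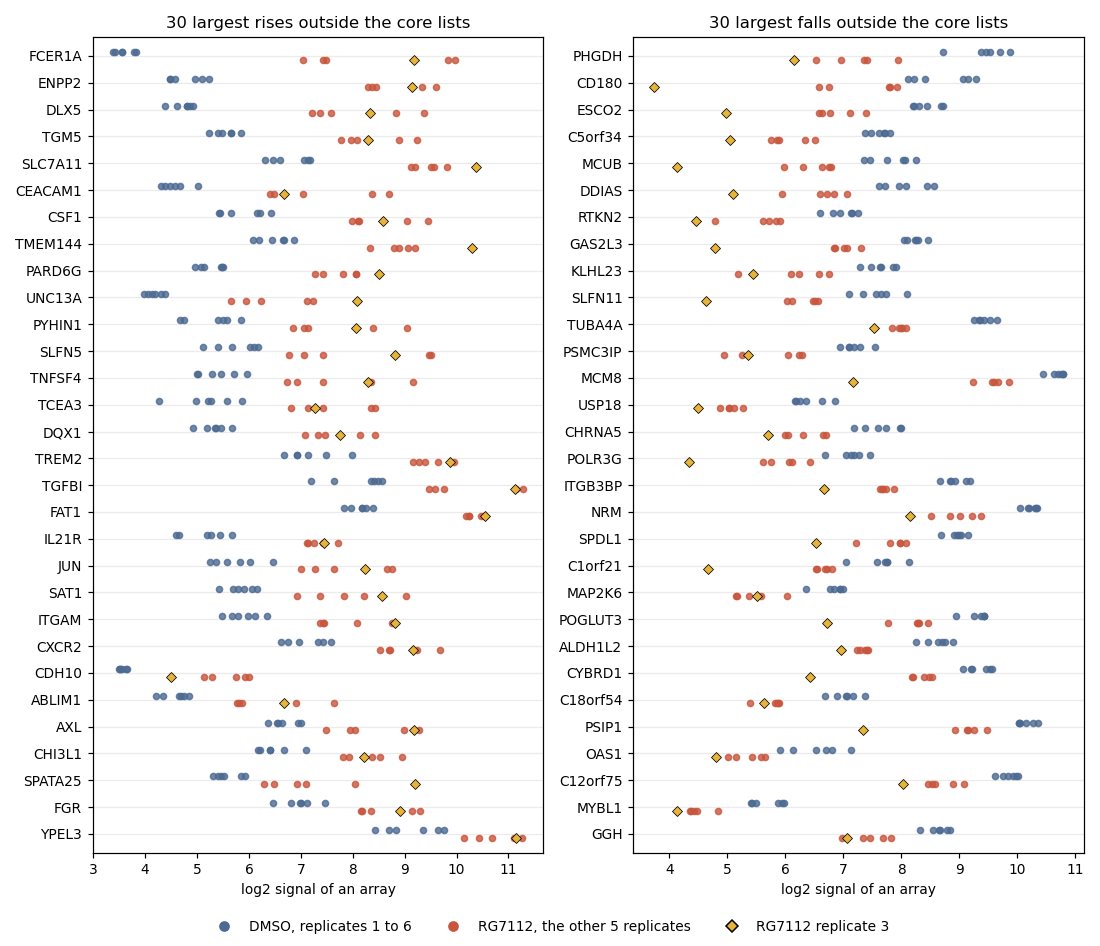
Log2 signal of each array (horizontal axis) for the 30 largest rises (left) and the 30 largest falls (right) outside the core lists, with DMSO arrays as blue circles, RG7112 arrays as red circles and RG7112 replicate 3 as a yellow diamond. The groups do not overlap for any of the 60 genes, since that chose them. The diamond is the lowest RG7112 array for 25 of the 30 falls.

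The 2 largest rises outside the core lists lay in a receptor of allergic effector cells and in an enzyme of lipid signalling. CLCA2, on the p53 list, rose by 4.42 and stood between both. FCER1A, the IgE-binding chain of a receptor on mast cells and basophils, had DMSO signals of 3.38 at the lowest, 3.55 at the median and 3.82 at the highest, and RG7112 signals of 7.04, 8.33 and 9.97. It went from the bottom of the signal range on every DMSO array to mid-range or above on every RG7112 array. The rise was 29.9-fold (4.90 ± 0.32, adjusted p = 1.39e-07; sets 6.00 and 3.81). Leaving out RG7112 replicate 3 gave 4.89. ENPP2, the secreted enzyme autotaxin that makes lysophosphatidic acid, had 4.49, 4.77 and 5.23 under DMSO and 8.30, 8.79 and 9.60 under RG7112, a rise of 16.7-fold (4.06 ± 0.10, adjusted p = 1.07e-11; 4.26 and 3.86), or 4.09 on the log2 scale without that array. The gap of about 3 log2 units between the nearest arrays of both groups was wider than the spread within either. Among the 38 measured mast cell and basophil genes only FCER1A, LIF and SLC45A3 rose and 0 fell, 3 of 38 or 7.89% against 7.49% of all probes. SLC45A3 was lost by leaving out any 1 of 7 arrays (adjusted p = 0.0521 to 0.0849).

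CSF1 and TNFSF4 were the leading cytokine genes among the rises. CSF1, the growth factor that macrophages need to survive, had DMSO signals of 5.41, 5.90 and 6.43 (lowest, median, highest) and RG7112 signals of 7.99, 8.35 and 9.45, and rose 6.34-fold (2.66 ± 0.24, adjusted p = 3.01e-06; 3.29 and 2.04). TNFSF4, the OX40 ligand that costimulates T cells, had 4.99, 5.37 and 5.95 and then 6.73, 7.86 and 9.17, and rose 5.33-fold (2.41 ± 0.20, adjusted p = 1.52e-06). Both ligands were higher on every RG7112 array than on any DMSO array, and without RG7112 replicate 3 their differences were 2.69 and 2.43. LIF, a cytokine of the interleukin 6 family and also on the p53 list, rose 3.24-fold. CHI3L1, a secreted chitinase-like glycoprotein of macrophages, rose 3.50-fold, and TGFBI, a matrix protein first found as induced by TGF-beta, 4.87-fold. CCL3, a chemokine that attracts leukocytes, differed by 0.60 ± 0.22 and did not pass (adjusted p = 0.0843), although it passed without RG7112 replicate 2 (adjusted p = 0.0342). Of 96 measured cytokines, chemokines and growth factors 16 rose (16.7% against 7.49% of all probes), 4 of them on the p53 list. In the same list 2 fell (2.08% against 9.17%). The list median was 0.08.

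Several surface receptors and adhesion molecules stood among the 30 rises. TREM2, a receptor for lipids on macrophages and microglia, had DMSO signals of 6.67, 7.04 and 7.98 and RG7112 signals of 9.16, 9.52 and 9.95, and rose 5.13-fold (2.36 ± 0.15, adjusted p = 9.56e-08). Its change was 2.35 and 2.36 in the sets, and 2.35 without RG7112 replicate 3. ITGAM, the CD11b chain of the complement receptor integrin on monocytes and granulocytes, had 5.48, 5.88 and 6.34 and then 7.37, 7.76 and 8.81, and rose 4.25-fold (2.09 ± 0.22, adjusted p = 1.02e-05; 2.69 and 1.48). IL21R, the receptor of interleukin 21, rose 4.63-fold and AXL, a receptor tyrosine kinase that binds the bridging protein of dying cells, 3.51-fold. CEACAM1, an adhesion molecule that also inhibits immune cells, rose 6.53-fold (2.71 ± 0.30, adjusted p = 1.48e-05), from a DMSO mean within the lowest 25% of signals. FAT1, a giant atypical cadherin, had 7.82, 8.18 and 8.38 and then 10.18, 10.36 and 10.54, and rose 4.71-fold (2.24 ± 0.10, adjusted p = 4.09e-09). Its RG7112 arrays lay within 0.4 of each other. CDH10, a classical cadherin, rose 3.67-fold, also from a DMSO mean within the lowest 25% of signals. FGR, a Src family kinase that signals below surface receptors in myeloid cells, rose 3.25-fold.

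CXCR2, the receptor by which neutrophils follow interleukin 8, rose 3.71-fold (1.89 ± 0.10, adjusted p = 2.04e-08; 1.91 and 1.87). Its DMSO signals were 6.62, 7.15 and 7.58 and its RG7112 signals 8.53, 8.94 and 9.68. It was 1 of 2 genes outside the core lists whose promoter held a p53 full site among the genes that rose by at least 1. The site searched for is the consensus of a pair of half-sites of 10 letters with 0 or 1 letter between them, each with its core C and G intact, and with at most 2 other mismatches. It reads the same on both strands. Promoters are the RefSeq windows of 250 bases before to 50 after a gene start on GRCh38.p14, and 14250 of the 17687 measured symbols had at least 1, 20090 windows in all. The other gene was PDE4C, a phosphodiesterase of cyclic AMP that rose by 1.31 and is named for this match after its values were seen. The windows below show the matches in capitals, each with 2 mismatches to the consensus, beside that of MDM2. The CXCR2 window is chr2:218125913-218125992 on the plus strand, the PDE4C window chr19:18224621-18224700 on the minus strand and the MDM2 window chr12:68808893-68808972 on the plus strand.
CXCR2: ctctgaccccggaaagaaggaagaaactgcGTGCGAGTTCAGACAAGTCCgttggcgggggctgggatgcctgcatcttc
PDE4C: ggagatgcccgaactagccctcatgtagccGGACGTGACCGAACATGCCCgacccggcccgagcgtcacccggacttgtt
MDM2: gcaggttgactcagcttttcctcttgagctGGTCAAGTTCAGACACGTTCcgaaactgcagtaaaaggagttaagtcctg
Such a match stood in 8 of the 287 promoters of genes that rose by at least 1 (2.79%), in 2 of the 198 of those outside the core lists (1.01%), in 0 of the 312 of genes that fell by at least 1 and in 97 of all 20090 (0.483%). FAS and ACTA2 share 1 of these matches, since their promoters overlap on opposite strands. A match is a run of letters, and binding was not measured.

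SLC7A11 and SAT1 were the amino acid and polyamine genes among the 30 rises. SLC7A11, the cystine carrier of the exchanger that feeds glutathione synthesis, had DMSO signals of 6.32, 6.83 and 7.18 and RG7112 signals of 9.12, 9.54 and 10.37, and rose 6.97-fold (2.80 ± 0.12, adjusted p = 2.52e-09). The change was 2.79 in replicates 1 to 3 and 2.81 in replicates 4 to 6, and 2.70 without RG7112 replicate 3, which held its highest signal. SAT1, which acetylates spermidine and spermine for export or breakdown, rose 4.44-fold (2.15 ± 0.21, adjusted p = 5.33e-06; 2.65 and 1.65). SLC22A4, a carrier of ergothioneine and other organic cations, rose 2.50-fold and lay outside the 30. TGM5, a transglutaminase that crosslinks proteins, rose 7.09-fold, and TMEM144, a membrane protein, 6.08-fold.

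The rest of the 30 rises had varied roles. DLX5, a homeobox factor of skeletal and limb development, had DMSO signals of 4.38, 4.81 and 4.92 and RG7112 signals of 7.21, 7.95 and 9.37, and rose 10.4-fold (3.38 ± 0.25, adjusted p = 5.39e-07; 4.16 and 2.61). Its relative DLX3 fell 2.25-fold (-1.17 ± 0.17, adjusted p = 0.000242), and TFAP2C, a factor of epidermal and germ line development, rose 2.73-fold. In the list of 90 measured homeobox and developmental factors 5 rose and 8 fell, 5.56% and 8.89%, near the shares over all probes. Without RG7112 replicate 3 there were 9 rises, and without DMSO replicate 1 only 4 falls. JUN, a subunit of the AP-1 factor, rose 4.53-fold (2.18 ± 0.23, adjusted p = 1.11e-05; 2.70 and 1.66), and the immediate early gene IER3 and the phosphatase DUSP16, which switches off JNK and p38, rose 3.13-fold and 2.82-fold. UNC13A, which primes synaptic vesicles, rose 5.81-fold, PARD6G, a polarity protein, 6.00-fold, and ABLIM1, an actin-binding LIM protein, 3.64-fold. The DMSO means of UNC13A and ABLIM1 lay within the lowest 25% of signals. TCEA3, a transcription elongation factor, rose 5.20-fold and DQX1 5.17-fold. PYHIN1 and SLFN5, members of 2 families of interferon-inducible proteins, rose 5.53-fold and 5.40-fold. YPEL3 rose 3.19-fold, and SPATA25 rose 3.39-fold (1.76 ± 0.30), or by 1.45 without RG7112 replicate 3, where its signal was 9.21.

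The largest fall of all was in serine synthesis. PHGDH, the first enzyme of the path from glycolysis to serine, had DMSO signals of 8.71, 9.50 and 9.87 and RG7112 signals of 6.16, 7.16 and 7.94, and fell 5.22-fold (-2.39 ± 0.17, adjusted p = 3.79e-07; -2.64 and -2.13). It was the only probe that fell by 2 or more, and it did so without RG7112 replicate 3 as well (-2.27). ALDH1L2, the mitochondrial enzyme that oxidises formyl-folate downstream of serine, had 8.25, 8.66 and 8.89 and then 6.97, 7.33 and 7.42, and fell 2.52-fold (-1.33 ± 0.12, adjusted p = 1.84e-06). GGH, which trims the glutamate tail of folates, fell 2.38-fold (-1.25 ± 0.14; -1.25 and -1.24). ASNS, asparagine synthetase, fell 2.16-fold (-1.11 ± 0.17, adjusted p = 0.000382). On all 4 genes every RG7112 array lay below every DMSO array. Of 65 measured genes of amino acid transport and synthesis 21 fell (32.3% against 9.17% of all probes) and 8 rose (12.3% against 7.49%), with a median of -0.12. There were 20 falls and 8 rises without RG7112 replicate 3. GLUL, glutamine synthetase, differed by -0.45 ± 0.15 and did not pass (adjusted p = 0.0607), although it passed without RG7112 replicate 1 (adjusted p = 0.0220). ASNS and PHGDH are known outputs of the integrated stress response. The list of that response, which holds ASNS but not PHGDH, ran from -1.19 to 1.53 and split. Of 51 measured, 9 rose and 9 fell, 17.6% each against 7.49% and 9.17% of all probes. SESN2, a leucine sensor and p53 target, rose 2.89-fold and CEBPB 2.00-fold.

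Some of the other 30 falls are known from work on chromosomes or the spindle, a grouping made after their values were seen and not counted against all probes. ESCO2, which acetylates cohesin so that sister chromatids hold together, fell 3.61-fold (-1.85 ± 0.30, adjusted p = 0.00053), and by 1.51 on the log2 scale without RG7112 replicate 3. MCM8, a helicase of recombination, fell 2.84-fold with that array and by 1.11 on the log2 scale without it. PSMC3IP, a partner of the strand exchange proteins, fell 2.85-fold. SPDL1, which brings dynein to kinetochores, ITGB3BP, a centromere protein, and GAS2L3, a linker of actin and microtubules in cytokinesis, fell 2.56-fold, 2.62-fold and 3.00-fold. DDIAS, RTKN2 and MYBL1, the last a relative of the mitotic regulator MYBL2, fell 3.23-fold, 3.02-fold and 2.38-fold. NRM, a protein of the inner nuclear membrane, fell 2.61-fold, and PSIP1, a reader of chromatin in active genes, 2.41-fold. Without RG7112 replicate 3 the log2 differences were -0.99 for PSIP1, -1.22 for GAS2L3 and -1.21 for ITGB3BP. TUBA4A, an alpha-tubulin, had DMSO signals of 9.26, 9.40 and 9.64 and RG7112 signals of 7.53, 7.98 and 8.09, and fell 2.87-fold (-1.52 ± 0.10, adjusted p = 2.1e-07).

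The cell cycle homology region, the letters TTTGAA searched on both strands, is a promoter element at which DREAM acts on mitotic genes. It stood in 86 of the 312 promoters of genes that fell by at least 1 (27.6%), in 22 of the 129 of those outside the core lists (17.1%), in 36 of the 287 of genes that rose by at least 1 (12.5%) and in 12.4% of all promoters. The 30 largest falls outside the core lists had 29 promoters, of which 4 (13.8%) held it, those of C5orf34, SPDL1 and C18orf54. C5orf34, an open reading frame without a settled function, fell 3.29-fold (-1.72 ± 0.17, adjusted p = 4.62e-06), and is shown as the largest fall of the 3. Its match, in capitals and on the opposite strand, starts at position -249 from the gene start, at the far edge of the window, whose printed stretch is chr5:43515362-43515398 on the minus strand of GRCh38.p14.
C5orf34: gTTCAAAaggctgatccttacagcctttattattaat

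The remaining falls had varied roles. CD180, a relative of the toll-like receptors on B cells and myeloid cells, had DMSO signals of 8.12, 8.74 and 9.28 and RG7112 signals of 3.73, 7.28 and 7.93, and fell 3.84-fold (-1.94 ± 0.41, adjusted p = 0.00387). The 3.73 is RG7112 replicate 3, and without it CD180 fell by 1.43 on the log2 scale (adjusted p = 6.64e-08). MCUB, a subunit that holds back the mitochondrial calcium uniporter, fell 3.29-fold, and by 1.37 on the log2 scale without that array. SLFN11, which blocks replication forks under DNA damage, fell 2.89-fold (-1.53 ± 0.21, adjusted p = 0.000128), opposite in direction to its relative SLFN5. CHRNA5, a subunit of nicotinic acetylcholine receptors, fell 2.66-fold, MAP2K6, the kinase above p38, 2.53-fold, POGLUT3, a glucosyltransferase of the endoplasmic reticulum, 2.53-fold and KLHL23, a member of the kelch-like family of ubiquitin ligase adaptors, 3.00-fold. CYBRD1, which reduces iron for uptake, fell 2.47-fold, and TFRC, the transferrin receptor, 1.95-fold, while NCOA4, the receptor that delivers ferritin to lysosomes, rose 1.96-fold. C1orf21, C18orf54 and C12orf75, which have no settled function, fell 2.54-fold, 2.46-fold and 2.39-fold. Without RG7112 replicate 3 the log2 differences were -1.29 for SLFN11, -1.04 for C1orf21 and -1.01 for CYBRD1.

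The functions were then read over 43 lists of general pathways, chosen like the core lists with earlier results of these data known. The counts are set beside the 7.49% and 9.17% of all probes that rose and fell and beside the median of 0.03. They describe the lists and do not test them against other genes. Counts of 5 or fewer moved by more than 1.5 times in many of the fits with 1 array left out.

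**Figure D3:**
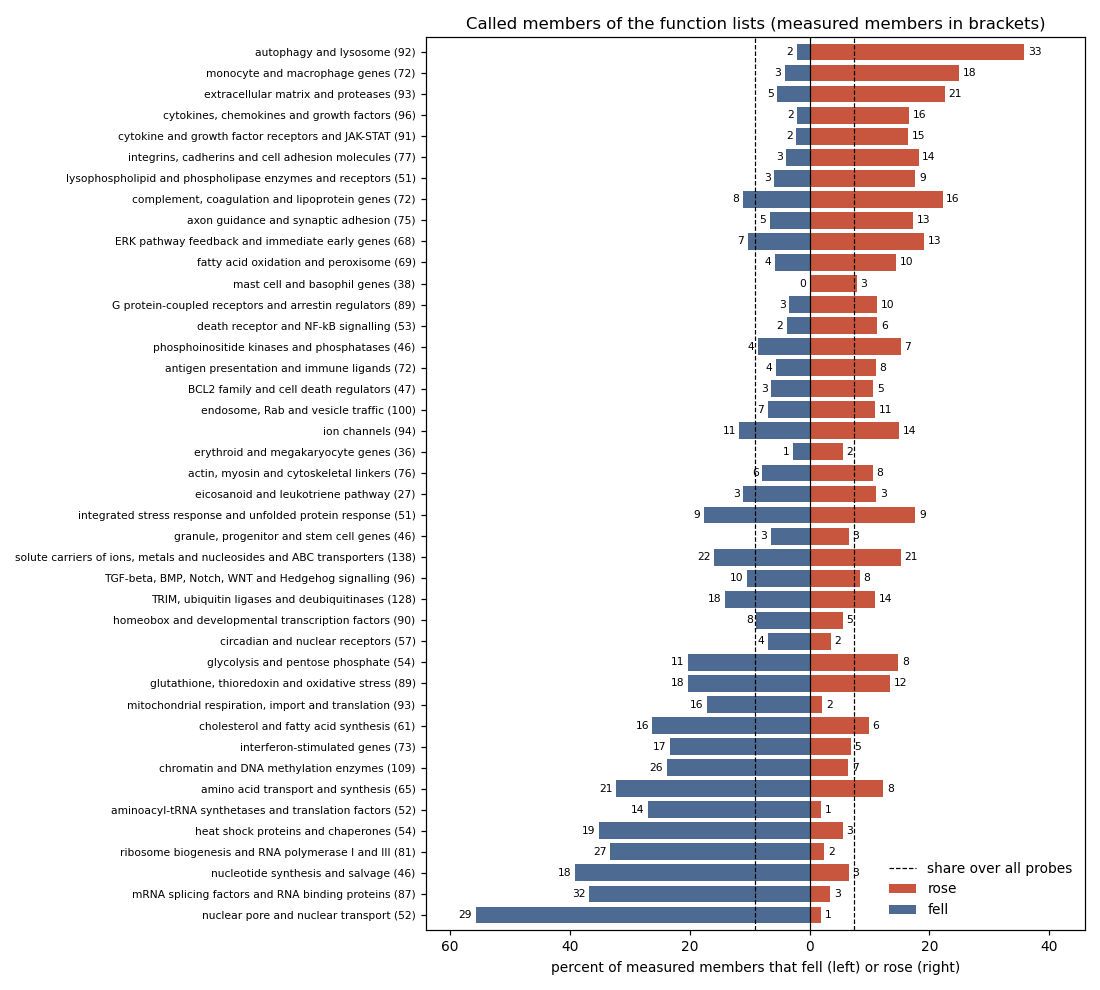
Percent of the measured members of the function lists, 1 of which is not shown, that fell (blue bars, left of 0) or rose (red bars, right of 0), with the number of members at each bar end, the number measured in brackets and the shares over all probes (9.17 and 7.49) as dashed lines. Lists are ordered by the percent that rose minus the percent that fell. Autophagy and lysosome stands at the top with 33 of 92 that rose, and nuclear pore and transport at the bottom with 29 of 52 that fell.

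Genes of RNA, protein and nucleotide production were lower on many lists. Of 52 measured genes of the nuclear pore and nuclear transport 29 fell and 1 rose, with a median of -0.37. Leaving out 1 array at a time gave 22 to 32 falls, the 32 without RG7112 replicate 3. NUP205 and NUP107, scaffold subunits of the pore, fell 2.04-fold and 1.95-fold, and NDC1, which anchors the pore in the membrane, 1.94-fold (-0.96 ± 0.12, adjusted p = 3.86e-05). NUP214 differed by -0.56 ± 0.26 and did not pass (adjusted p = 0.166), with RG7112 replicate 3 at 7.96 and the other 5 arrays at 9.79 to 10.11, and passed at -0.25 without that array (adjusted p = 0.0233). Of 87 measured splicing factors and RNA binding proteins 32 fell, 21 without DMSO replicate 2, and 3 rose. SNRNP25, a protein of the minor spliceosome, fell 1.73-fold (-0.79 ± 0.11, adjusted p = 0.000194). Of 46 genes of nucleotide synthesis and salvage 18 fell and 3 rose. The rises numbered 2 to 5 with 1 array left out, the 5 without RG7112 replicate 3. PAICS, a purine synthesis enzyme, fell 1.77-fold, DCTPP1, which clears noncanonical nucleotides, 1.81-fold, and ADA, adenosine deaminase, rose 1.96-fold. AK4, a mitochondrial adenylate kinase, differed by -0.79 ± 0.27 and did not pass (adjusted p = 0.0645), although it passed without DMSO replicate 3 (adjusted p = 0.0459) or 4 (0.0253).

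Ribosome, translation, chaperone and mitochondrial lists followed with shares that depended on single arrays. Of 81 measured genes of ribosome biogenesis and RNA polymerases I and III 27 fell and 2 rose, with a median of -0.28, and the falls numbered 15 without DMSO replicate 2 or 3 and 17 without RG7112 replicate 5. POLR3G, a subunit of RNA polymerase III, fell 2.66-fold (-1.41 ± 0.25; -1.15 without RG7112 replicate 3), and LYAR and UTP20, which help to assemble ribosomes, fell 1.68-fold and 1.57-fold. Of 52 aminoacyl-tRNA synthetases and translation factors 14 fell and 1 rose, with 8 falls without DMSO replicate 2, 3 or 6 and 9 without RG7112 replicate 1 or 5. EIF4EBP1, a brake on cap-dependent translation, fell 2.16-fold, and AARS1, the alanyl-tRNA synthetase, 1.73-fold (-0.79 ± 0.10, adjusted p = 4.47e-05). Of 54 heat shock proteins and chaperones 19 fell and 3 rose, and the falls numbered 11 without DMSO replicate 3 or RG7112 replicate 5 and 12 without DMSO replicate 2 or 6. BAG2 and DNAJC9, cochaperones of HSP70 proteins, fell 2.08-fold and 2.11-fold. Of 93 genes of mitochondrial respiration, import and translation 16 fell and 2 rose. Only 6 fell without DMSO replicate 2 or 3 and 8 without DMSO replicate 4 or RG7112 replicate 5. Without DMSO replicate 6 or RG7112 replicates 1 or 6 there were 9 falls in this list, and after a further quantile normalization 10. IDH2, the mitochondrial isocitrate dehydrogenase, fell 1.49-fold (-0.58 ± 0.08, adjusted p = 0.000205).

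Chromatin genes fell more often than they rose. Of 109 measured chromatin and DNA methylation enzymes 26 fell and 7 rose, and the rises numbered 14 without RG7112 replicate 3, 3 without DMSO replicate 3 and 4 without DMSO replicate 2 or RG7112 replicate 5. PHF19, an accessory subunit of the Polycomb complex, fell 2.00-fold (adjusted p = 0.000718). H2AX and H2AZ1, histone variants that mark breaks and promoters, fell 1.88-fold and 1.78-fold. KDM3A, a histone demethylase, differed by -0.51 ± 0.20 and did not pass (adjusted p = 0.0998), although it passed without DMSO replicate 4 (adjusted p = 0.0207).

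Lysosome and autophagy genes were the opposite case. Of 92 measured members 33 rose (35.9%), 2 of them on the p53 list, and 2 fell, with a median of 0.19. Leaving out 1 array at a time gave 28 to 37 rises, the 37 without RG7112 replicate 3. GABARAPL1, a ubiquitin-like protein of the autophagosome, had DMSO signals of 6.46, 6.93 and 7.19 and RG7112 signals of 7.58, 8.15 and 9.05, and rose 2.54-fold (1.34 ± 0.20, adjusted p = 0.00021). ARSA, a lysosomal sulphatase, had 6.22, 6.65 and 7.09 and then 7.50, 7.93 and 8.41, and rose 2.50-fold (1.32 ± 0.12, adjusted p = 2.52e-06; 1.36 and 1.28). No RG7112 array of either gene reached down to a DMSO array. FUCA1, a lysosomal fucosidase and p53 target, rose 3.31-fold. WIPI1, which marks forming autophagosomes, differed by 0.44 ± 0.14 and just missed the threshold (adjusted p = 0.0519), and passed when DMSO replicate 1 or 5 or RG7112 replicate 3 or 4 was left out (adjusted p from 0.0117 to 0.0486).

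Desaturase genes were among the called lipid genes. FADS2, the first desaturase of polyunsaturated fatty acid synthesis, had DMSO signals of 10.33, 11.22 and 11.83 and RG7112 signals of 8.53, 9.77 and 10.47, and fell 2.81-fold (-1.49 ± 0.22, adjusted p = 0.00024; -1.59 and -1.39). SCD, which makes monounsaturated fatty acids, had 9.92, 10.60 and 11.27 and then 8.32, 9.51 and 10.13, and fell 2.26-fold (-1.18 ± 0.17, adjusted p = 0.00021; -1.27 and -1.09). The groups overlapped for both desaturases. FADS3, a relative of FADS2, rose 2.48-fold (1.31 ± 0.13, adjusted p = 4.4e-06). Of 61 measured genes of cholesterol and fatty acid synthesis 16 fell and 6 rose, with a median of -0.15. The falls numbered 13 to 20 with 1 array left out, the 20 without RG7112 replicate 3. CD36, a scavenger receptor that takes up fatty acids and oxidised lipoproteins, had 9.88, 10.28 and 10.60 and then 11.43, 11.91 and 12.12, and rose 2.99-fold (1.58 ± 0.08, adjusted p = 8.13e-09; 1.57 and 1.60). Of 69 genes of fatty acid oxidation and peroxisomes 10 rose, 6 without DMSO replicate 2, and 4 fell. Around ENPP2, 9 of 51 measured lysophospholipid and phospholipase genes rose and 3 fell. DGKA, which turns diacylglycerol into phosphatidic acid, rose 3.01-fold, and PLA2G7, the secreted platelet-activating factor hydrolase, 1.92-fold from the lowest 25% of signals. PTGER4, a prostaglandin E2 receptor, rose 2.37-fold (1.24 ± 0.10, adjusted p = 1.06e-06). LPAR4, a receptor of lysophosphatidic acid, differed by -0.57 ± 0.26 and did not pass (adjusted p = 0.151), with RG7112 replicate 3 at 5.22 and the other arrays of the group at 6.71 to 7.17.

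**Figure D4:**
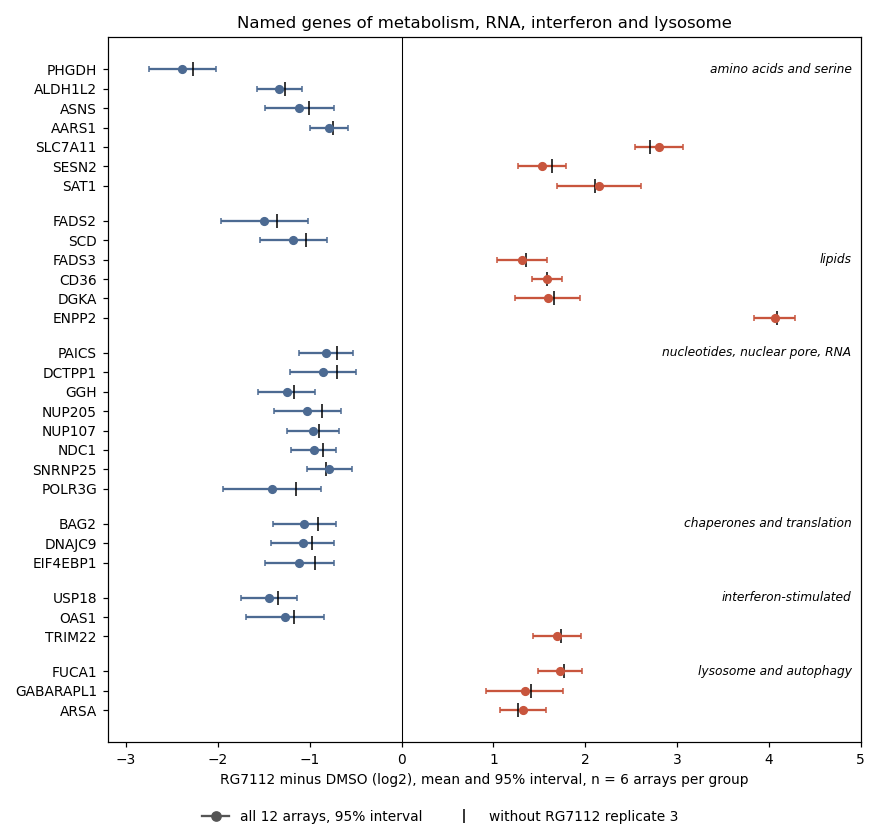
Difference between RG7112 and DMSO on the log2 scale (horizontal axis) for 30 named genes of metabolism, RNA and protein production, interferon response and lysosome. Circles are the means over 6 arrays per group with 95% intervals, and upright ticks the values without RG7112 replicate 3. PHGDH stands furthest to the left at -2.39 and ENPP2 furthest to the right at 4.06.

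In glycolysis PFKFB3, which makes the activator of phosphofructokinase, rose 2.45-fold, and SLC16A7, a monocarboxylate carrier, fell 2.00-fold. Of 54 measured members 8 rose and 11 fell. The rises numbered 5 without DMSO replicate 1, 3 or 4 or RG7112 replicate 1, 5 or 6. In the list of glutathione, thioredoxin and oxidative stress genes 12 of 89 rose and 18 fell, and only 8 fell without DMSO replicate 3, 9 without DMSO replicate 2 and 11 without DMSO replicate 1. GPX1, the main cytosolic glutathione peroxidase, rose 1.70-fold and ALDH7A1 2.14-fold. Of 138 ion, metal and nucleoside carriers and ABC transporters 21 rose and 22 fell, and ABCA7, a lipid exporter, rose 2.07-fold.

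Myeloid genes rose more often than they fell. Of 72 measured monocyte and macrophage genes 18 rose (25%) and 3 fell, with a median of 0.17. Leaving out 1 array at a time gave 14 to 24 rises, the 24 without RG7112 replicate 3. TLR6, a toll-like receptor, differed by 0.89 ± 0.31 and did not pass (adjusted p = 0.0652). RG7112 replicate 3 was at 4.70, inside the DMSO range, while the other 5 arrays were at 6.23 to 7.04, and without it TLR6 rose by 1.23 (adjusted p = 0.000109). Genes of immature blood cells moved in both directions. FLT3, the receptor of progenitors that is a drug target in this leukaemia, had DMSO signals of 8.33, 8.78 and 9.04 and RG7112 signals of 6.90, 7.51 and 8.26, and fell 2.26-fold (-1.17 ± 0.13, adjusted p = 1.28e-05; -1.50 and -0.85). WT1, a transcription factor of blasts, fell 1.73-fold and CD38 rose 1.80-fold. Of 46 measured granule, progenitor and stem cell genes 3 rose and 3 fell, 6.52% each, near the shares over all probes. Of 20 measured lymphocyte markers 0 passed (1 rose without RG7112 replicate 2), and of 18 fibroblast and epithelial markers 1 rose, but 0 without any 1 of 9 arrays.

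Rises outnumbered falls in the matrix, adhesion and guidance lists. Of 93 measured genes of matrix and proteases 21 rose (22.6%) and 5 fell, with a median of 0.10. The falls numbered 2 without DMSO replicate 1 and 3 without any 1 of 8 other arrays. SULF2, an extracellular sulphatase on the p53 list, rose 6.66-fold, and COL5A1, a fibrillar collagen chain, 2.90-fold (1.54 ± 0.13, adjusted p = 1.27e-06). VCAN, the proteoglycan versican, differed by 0.46 ± 0.37 and did not pass (adjusted p = 0.440), with DMSO signals spread from 6.69 to 9.24. Of 77 integrins, cadherins and other adhesion molecules 14 rose and 3 fell, the falls being 0 without DMSO replicate 1 or 3. Of 75 guidance and synaptic adhesion genes 13 rose and 5 fell. A core list held 2 of the 21 matrix rises, 2 of the 14 adhesion rises and 3 of the 13 guidance rises. ASTN2 and PLXNB3, both on the p53 list, rose 4.58-fold and 3.43-fold, and SYTL2, a vesicle-docking protein, 2.64-fold. Of 72 complement, coagulation and lipoprotein genes 16 rose and 8 fell, with 5 falls without DMSO replicate 5 or RG7112 replicate 6, and CD46, which protects cells from complement, rose 2.69-fold. Of 91 cytokine receptors and JAK-STAT genes 15 rose and 2 fell. The rises numbered 13 to 21 with 1 array left out, the 21 without RG7112 replicate 3. IL10RA, the interleukin 10 receptor chain, rose 1.97-fold.

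Interferon-stimulated genes fell more often than they rose. USP18, which removes ISG15 and damps interferon signalling, had DMSO signals of 6.17, 6.30 and 6.86 and RG7112 signals of 4.49, 5.03 and 5.27, and fell 2.72-fold (-1.44 ± 0.14, adjusted p = 6.13e-06; -1.59 and -1.30). OAS1, a sensor of double-stranded RNA, had 5.91, 6.62 and 7.12 and then 4.81, 5.29 and 5.66, and fell 2.41-fold (-1.27 ± 0.20, adjusted p = 0.000388; -1.23 and -1.31). Both were lower on every RG7112 array than on any DMSO array. Of 73 measured members 17 fell (23.3%) and 5 rose (6.85%), with a median of -0.11. There were 19 falls and 7 rises without RG7112 replicate 3, and 12 to 19 falls and 4 to 7 rises over the fits with 1 array left out. TRIM22, an antiviral ubiquitin ligase and p53 target, rose 3.23-fold. SAMD9L differed by -0.69 ± 0.24 and did not pass (adjusted p = 0.0618), but passed without DMSO replicate 4 (adjusted p = 0.0200) and, at -0.44, without RG7112 replicate 3 (adjusted p = 0.0369).

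The promoters of this list are shown because its members share a response element. The core of the interferon-stimulated response element was searched as GAAANNGAAA on both strands. It stood in 36 of the 68 promoters of measured list members (52.9%) and in 3.12% of all promoters. Within the list the promoters of members that fell and of members that did not pass held it about equally, 11 of 20 (55%) and 25 of 47 (53.2%). IFIT1, IFIT3 and MX1, antiviral effectors named for their matches after their values were seen, fell by 0.97, 0.97 and 1.16 on the log2 scale. Their windows are chr10:89392477-89392559, chr10:89332405-89332517 and chr21:41431824-41431893, all on the plus strand, with the matches in capitals.
IFIT1: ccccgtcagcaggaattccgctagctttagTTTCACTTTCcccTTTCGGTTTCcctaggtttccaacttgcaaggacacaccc
IFIT3: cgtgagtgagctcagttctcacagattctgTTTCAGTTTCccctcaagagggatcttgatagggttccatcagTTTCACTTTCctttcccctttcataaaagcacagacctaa
MX1: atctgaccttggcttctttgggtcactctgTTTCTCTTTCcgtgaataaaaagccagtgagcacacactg

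In antigen presentation and immune ligands 8 of 72 measured genes rose, 3 of them on a core list, and 4 fell, close to the shares over all probes. After a further quantile normalization 13 rose. TAP1, a chain of the peptide transporter and p53 target, rose 2.48-fold, MR1, which presents vitamin metabolites to T cells, 2.21-fold (1.14 ± 0.08, adjusted p = 3.96e-07; 1.21 and 1.08), and LGALS9, a galectin that binds inhibitory receptors, 2.41-fold. Among 53 genes of death receptors and NF-kB signalling 6 rose and 2 fell, and the rises numbered 3 without DMSO replicate 4 or with array medians subtracted. CASP1, the inflammasome protease, rose 1.69-fold and TIFA, an adaptor upstream of NF-kB, fell 2.18-fold. Of 47 BCL2 family and cell death regulators 5 rose and 3 fell, and the rises numbered 2 without DMSO replicate 3 or with array medians subtracted. BCL2A1, an antiapoptotic member, rose 2.60-fold, and CASP2, a p53-linked caspase, fell 1.70-fold. The death receptor list and the BCL2 list hold no measured gene of the core lists. Genes on the p53 list such as FAS, which rose by 1.45, are therefore outside both counts.

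In the ERK feedback and immediate early list 13 of 68 rose (19.1%) and 7 fell, 3 without DMSO replicate 3 or 6 or RG7112 replicate 6 and 12 with array medians subtracted. Of 96 genes of TGF-beta, BMP, Notch, WNT and Hedgehog signalling 8 rose and 10 fell. ID3, an inhibitor of basic helix-loop-helix factors, fell 2.27-fold, and FZD6, a WNT receptor, and RFNG, a modifier of Notch, rose 2.14-fold and 2.16-fold. Of 128 TRIM proteins, ubiquitin ligases and deubiquitinases 14 rose, 8 without RG7112 replicate 5, and 18 fell. Of 100 endosome and Rab genes 11 rose and 7 fell, and of 76 actin and myosin genes 8 rose, 5 without DMSO replicate 2, and 6 fell, 3 without DMSO replicate 3 or RG7112 replicate 6. Among 94 ion channels 14 rose (14.9%), 4 of them on a core list, and 11 fell. The rises numbered 7 without DMSO replicate 2 and 8 without DMSO replicate 3, and the falls 7 without DMSO replicate 1. KCNK5, a background potassium channel, fell 1.86-fold. Of 57 circadian genes and nuclear receptors 2 rose and 4 fell, and RARG, a retinoic acid receptor, fell 1.74-fold.

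Most of the largest changes outside the core lists were larger in replicates 1 to 3 than in replicates 4 to 6. This held for 28 of the 30 rises and 28 of the 30 falls outside the core lists. The share over all probes was not counted, so whether the pattern is particular to these genes was not tested. The median change of the 30 rises was 2.69 in replicates 1 to 3 and 1.90 in replicates 4 to 6, and of the 30 falls -1.65 and -1.21. Without RG7112 replicate 3, which belongs to the first set, the counts were 26 and 25, and the medians for replicates 1 to 3 were 2.73 and -1.40. The core lists did not all follow this pattern. Medians in the sets were 0.98 and 0.71 for the p53 targets, -1.45 and -0.91 for the G2/M list and -0.64 and -0.67 for the histones. CDKN1A changed by 3.57 and 4.36, and MDM2 by 2.32 and 2.82. A test of the difference between the sets passed for 5 probes (0.0233% of all). It passed for 0 without DMSO replicate 2, 3, 4, 5 or 6 or RG7112 replicate 1, 5 or 6. An unadjusted p below 0.05 was reached by 1016 of the 21448 probes, where chance gives about 1 in 20. The 5 probes were those of FCER1A, CLCA2, THBS1, PLTP and IRF2BPL, the last 2 outside the naming rule. THBS1, thrombospondin 1, a matrix glycoprotein, rose 2.69-fold over both sets (1.43 ± 0.27), by 2.35 within replicates 1 to 3 and by 0.51 within replicates 4 to 6 (adjusted p of the difference = 0.0179). PLTP, a phospholipid transfer protein, changed by 2.78 and 1.42 in the sets (adjusted p of the difference = 0.0295), and IRF2BPL by 1.28 and 0.23 (0.0312). What the sets are was not tested, since the labels do not name them.

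**Figure D5:**
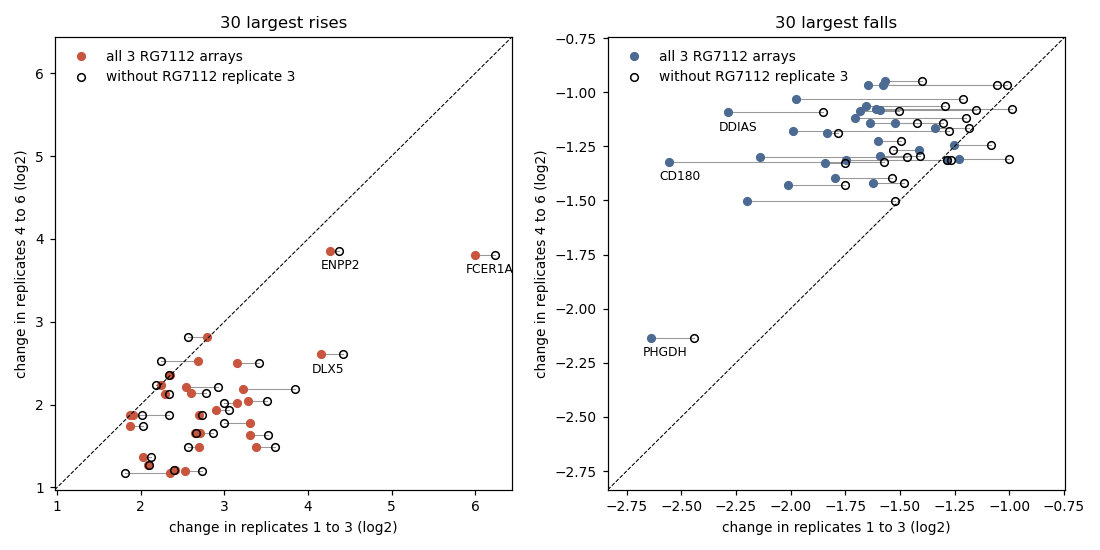
Change in replicates 4 to 6 (vertical axis, log2) against the change in replicates 1 to 3 (horizontal axis, log2) for the 30 largest rises (left) and falls (right) outside the core lists. Filled circles use all 3 RG7112 arrays of the first set, open circles leave out RG7112 replicate 3, and the dashed line marks equal changes. Of the filled circles, 28 on each side lie on the side of the larger change in replicates 1 to 3.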

How the data were processed

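RNA of OCI-AML3 cells was measured on 18 Affymetrix arrays, and the 12 of the DMSO and RG7112 groups were compared. The deposited values are on a log2 scale. Per the submitters' processing notes they come from oligo and RMA, a method of background correction, normalization between arrays and summary per probe set. The build and the versions of these tools: not given in the sources used here. Array medians were 6.44 to 6.57. Precision is limited by how many arrays there are. The values carry no detection call. A reference table gave 17709 of 21448 probes exactly 1 symbol, 0 several and 3739 none here. Lists use, for the 20 symbols with several probes, the probe with the highest mean.

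The model, run in limma 3.58.1 under R 4.3.3, had group and replicate set (1 to 3, 4 to 6) as terms for each probe over the 12 arrays, followed by the default empirical Bayes step. The set difference came from the interaction. The code was tested on simulated data. Replicate numbers were not taken to pair samples. The 51 lists (5 core, 43 function, 3 marker) hold 3900 genes, of which 3549 were measured. The text names the 30 largest rises and falls outside the core lists among probes that passed without overlap, and from each function list up to 3 members that passed and the largest that did not, 2 from each core list, and the genes of the label check. Some of the latter 3 kinds are left out. The result of 1 function list is not reported here. Members and lists were chosen with earlier results of these data known. Alternatives are given under the dependence on processing.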

Additional observations from a re-analysis of the deposited data

Results flagged for a closer look

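For each named gene the most extreme array of a group of 6 was set against the gap to its neighbour, and 41 of 438 groups held an array further out than Dixon's 95% value, where chance gives about 1 in 20. Most of the genes were named for large differences, so that rate need not hold among them. Of the 41 arrays, 32 were RG7112 replicate 3. It was the lowest array for large falls outside the core lists, with CD180 at 3.73 (others 6.59 to 7.93), ESCO2 at 4.97 (others 6.58 to 7.39), MCUB at 4.13 (others 5.97 to 6.79), GAS2L3 at 4.79 (others 6.85 to 7.31) and SLFN11 at 4.63 (others 6.03 to 6.57). The same held for MCM8 at 7.17 (others 9.24 to 9.87), ITGB3BP at 6.66 (others 7.63 to 7.87), C1orf21 at 4.66 (others 6.53 to 6.80), CYBRD1 at 6.42 (others 8.18 to 8.53) and PSIP1 at 7.33 (others 8.93 to 9.48). Among the other named genes it was also lowest for E2F8 at 5.97, SGO1 at 5.58, LPAR4 at 5.22, CYSLTR1 at 8.63, INPP4B at 4.38, ACTA2 at 9.58, DLX3 at 5.80, TLR6 at 4.70, NFE2 at 3.46 and IL2RG at 5.73, and for SAMD9L at 6.52, ETV5 at 5.19, DDX10 at 5.92, EIF5A at 11.51, NUP214 at 7.96, LSM3 at 7.50, DHCR7 at 7.81, BAG2 at 6.67, SLC31A1 at 7.63 and CASP2 at 9.09. It was the highest for ASTN2 at 10.25 and BCL2L2 at 9.31. DMSO replicate 1 was the lowest of its group for MAP2K6 at 6.36, POGLUT3 at 8.94, ARHGEF39 at 8.55, DDX10 at 7.28, EIF4EBP1 at 9.61, NUP214 at 10.04 and DNAJC2 at 9.01, and the highest for GPX1 at 11.35. RG7112 replicate 5 was the highest for FGD4 at 5.99. All of these are log2 signals.

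In the interaction test of limma over all 12 arrays, the change under RG7112 differed between the replicate sets for 3 named genes. The calls were fragile, since 0 probes passed without DMSO replicate 2, 3, 4, 5 or 6 or RG7112 replicate 1, 5 or 6. FCER1A changed by 6.00 in replicates 1 to 3 and by 3.81 in replicates 4 to 6, a difference of 2.19. CLCA2 changed by 5.64 in replicates 1 to 3 and by 3.21 in replicates 4 to 6, a difference of 2.43. THBS1 changed by 2.35 in replicates 1 to 3 and by 0.51 in replicates 4 to 6, a difference of 1.85.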

How the results depend on the processing

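The 3574 calls (1607 rises, 1967 falls) were within 1.5 times of the count in each fit that used both replicate sets, from 2707 to 4106 with 1 array left out, 3164 without the set block, 4457 with all 18 arrays and 4627 with array weights. Tests within 1 set, with 3 arrays per group, gave 1266 calls in replicates 1 to 3 (608 rises, 658 falls) and 1896 in replicates 4 to 6 (852 rises, 1044 falls, 186 of them by at least 1). The 5 probes whose change differed between the sets became 8 with all 18 arrays and 0 to 8 with 1 array left out. There were 8 without RG7112 replicate 3, and 0 without DMSO replicate 2, 3, 4, 5 or 6 or RG7112 replicate 1, 5 or 6. With 1 array left out, 754 to 2259 of the 21448 probes had an unadjusted p below 0.05 in limma, where chance gives about 1 in 20. Of the 175 named genes that passed, 139 passed in each of the 24 alternatives, and 0 named genes that passed changed sign. All of the 60 largest changes outside the core lists passed outside the tests within 1 set. Within replicates 1 to 3, CD180 (adjusted p = 0.0757), GAS2L3, MCM8, POLR3G, C1orf21, CYBRD1 and PSIP1 did not pass. With the replicate number as a replicate block in place of the set, 3712 probes passed. Whether same-numbered samples belong together is not in the labels, and these correlations do not settle it. Their group deviations correlated at 0.017 to 0.37, and at -0.05 to 0.31 with the set means also removed. Most samples, but not every one, correlated best with their own number on the group deviations. List medians near 0 changed sign when array medians were subtracted, which moved the median over all probes from 0.03 to -0.02. Without detection calls, low signals, such as those of FCER1A and CDH10 under DMSO, set no lower limit to a level.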

Other observations

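Several function lists are not described above. Of 89 measured G protein-coupled receptors and their regulators 10 rose (11.2%) and 3 fell (3.37%). The falls numbered 7 without RG7112 replicate 3 and 1 without DMSO replicate 1, 2 or 6 or RG7112 replicate 5. GPR180 fell 1.90-fold, and ADGRE2, an adhesion receptor of myeloid cells, rose 1.77-fold. Of 46 phosphoinositide kinases and phosphatases 7 rose (15.2%) and 4 fell (8.70%). FIG4, a phosphatase of endosomal phosphoinositides, rose 1.69-fold and ITPKC, an inositol trisphosphate kinase, 1.62-fold. Among 27 eicosanoid and leukotriene genes 3 rose, 7 without RG7112 replicate 2, and 3 fell. PTAFR, the receptor of platelet-activating factor, rose 1.93-fold, and CYSLTR1, a receptor of cysteinyl leukotrienes, fell 1.63-fold. Of 36 erythroid and megakaryocyte genes 2 rose and 1 fell (2.78%), 3 without RG7112 replicate 3, and TREML1, a receptor of platelet granules, rose 1.79-fold. NFE2, a transcription factor of that lineage, differed by -0.74 ± 0.26 and did not pass.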
